A study of Mus musculus with 4 samples.

Results

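Of the 11718 places on the autosomes where 1 Rad21 peak of mouse neural stem cells (NSCs) overlapped 1 Rad21 peak of astrocytes (ASTs), 1654 were narrow in both cell types (14.1%, 95% interval 13.5 to 14.8). A site was taken when the NSC and the AST peak overlapped by at least 1 bp, each overlapped no other peak of the opposite list, and both were under 200 bp long. The sites were therefore chosen by the measured widths and by the overlap, and widths, with the enrichment that goes with them, are given as a description. The other pairs were wide in both lists (6155), wide in NSCs and narrow in ASTs (3155), or narrow in NSCs and wide in ASTs (754).

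Rad21 is the kleisin subunit that closes the cohesin ring, which holds sister chromatids together and also forms chromatin loops in interphase. Loops often stop where cohesin meets the DNA-binding protein CTCF, so cohesin is found in sharp peaks at many CTCF sites. In a ChIP-seq peak list, the summit is the base with the highest fragment pile-up, fold enrichment is that pile-up divided by the peak caller's local background, and width is the length over which the caller kept the signal above its threshold.

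The 4 libraries were 1 Rad21 precipitate per cell type, made with the same antibody, and 1 matching input of chromatin that was not precipitated. NSCs were cultured with EGF and FGF, ASTs with BMP and FGF, both in serum-free medium, laminin being listed in the same protocol, and the labels give no further treatment of either. By the study's methods the NSCs are clonal populations derived from mouse embryonic stem cells, and the ASTs are non-dividing cells obtained from NSCs with BMP4, so neither is a primary tissue. There was 1 Rad21 library per cell type and no replicate, so NSC and AST values are set side by side without a p-value. Intervals are exact 95% intervals for counting error within these libraries, the deposited lists carry no marker of cell identity, and the read totals are unknown. Sites are given by position in build mm9, without sequence or gene names, since no mm9 genome was used here.

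Most narrow peaks of one list did not meet a narrow peak of the other. Among the 17925 autosomal NSC peaks, 6362 were narrow (35.5%), and 26.0% of these belonged to the shared narrow sites (24.9 to 27.1). A further 754 narrow NSC peaks, 11.9%, were paired with a wide AST peak, and 3932, 61.8%, met no AST peak. The ASTs divided differently. Of 15707 autosomal AST peaks 7487 were narrow (47.7%), and 22.1% of them were shared narrow sites (21.2 to 23.0), while 42.1% were paired with a wide NSC peak and 35.2% met no NSC peak. A narrow AST peak was thus paired with a wide NSC peak more often than with a narrow one. Of all 11718 pairs, however, 9310 were wide in NSCs. A narrow NSC peak was most often called in NSCs alone. Among wide peaks, 19.0% of those in NSCs and 15.2% of those in ASTs met no peak of the other list. Read from the pairs, 68.7% of those narrow in NSCs were also narrow in ASTs, against 33.9% of those wide in NSCs.

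**Figure D1:**
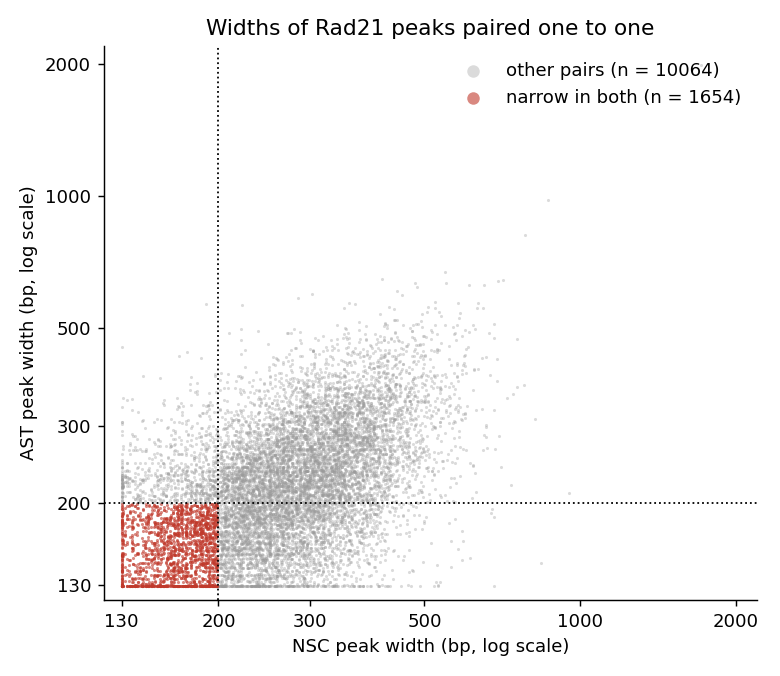
Width of the AST peak (vertical, bp, log scale) against that of the NSC peak (horizontal, bp, log scale) for all 11718 one-to-one pairs, with dotted lines at 200 bp. The 1654 pairs narrow in both lists (red) fill the lower left corner, down to the shortest lengths of 130 bp in NSCs and 129 bp in ASTs, and grey points continue past the dotted lines with no gap.

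The peaks of the shared narrow sites were close to the shortest the caller returned. NSC peaks had a median length of 168 bp, with quartiles of 150 and 185 bp, and AST peaks of 157 bp, with quartiles of 138 and 177 bp. The shortest length in the NSC list, 130 bp, was held by 98 of the sites (5.93%), and the shortest in the AST list, 129 bp, by 217 (13.1%), with 15 at the shortest length in both. The paired peaks shared a median of 136 bp of the 188 bp they jointly covered. Values on either side of the limit were near each other in summit distance and less so in pile-up. The 30 sites with both widths from 190 bp up to the limit had median fold enrichments of 8.66 in NSCs and 7.57 in ASTs and a median summit distance of 14.0 bp, and the 26 pairs just outside, with both widths less than 10 bp over it, had 7.71, 8.05 and 13.5 bp. Median pile-ups were 31.6 fragments in NSCs and 21.0 in ASTs inside the limit, and 34.0 and 25 outside it.

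Summits of the paired peaks lay close together, though less so than over all pairs. The NSC and AST summits lay a median of 23.0 bp apart (21.0 to 24.0, quartiles 11 and 41). They were within 10 bp of each other at 404 sites (24.4%), within 20 bp at 757 (45.8%) and within 50 bp at 1363 (82.4%, 80.5 to 84.2). The background for the last share, over all one-to-one pairs, was 88.5%, so the narrow sites fell below it. Summits coincided to the base at 7 sites and were more than 100 bp apart at 30. Each summit lay inside the other cell type's peak at 1565 sites (94.6%), and neither did at 25 (1.51%), against 98.1% and 0.401% of all pairs. A shorter peak leaves less room for the other summit, and width chose the sites, so nothing is read from these shares.

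The offset had no preferred direction. The AST summit was at the lower position at 828 sites and at the higher position at 819, with a median offset of -1 bp (-2 to 2). At sites wide in both lists the median summit distance was 17.0 bp and 91.9% were within 50 bp. Set against the length jointly covered, the distance was a median of 12.4% at the narrow sites and 4.89% at the wide ones. That length follows from the width limit, with medians of 188 and 338 bp, so nothing is read from these percentages.

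**Figure D2:**
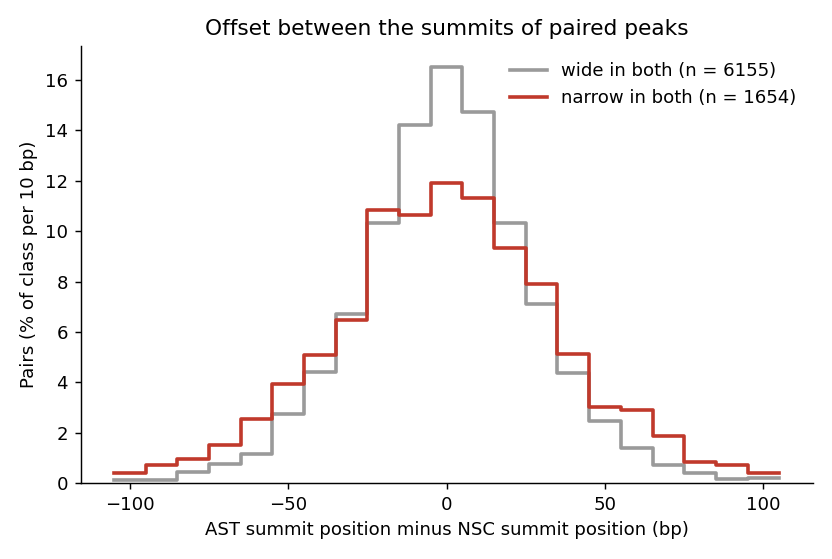
Position of the AST summit minus that of the NSC summit (bp, bins of 10 bp), as a percentage of the pairs in each class. Both curves are centred near 0, and the curve of the 1654 narrow sites (red) is lower in the middle and broader than that of the 6155 pairs wide in both (grey).

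Summit distance fell as pile-up rose, at narrow and wide sites alike. Where the lower of the paired pile-ups was 15 fragments or fewer, the 316 narrow sites had a median distance of 32.0 bp. At the 837 sites above 15 and up to 20 fragments it was 23.0 bp (21 to 25), at the 363 above 20 and up to 25 it was 19.0 bp, and at the 135 above 25 and up to 40 it was 16.0 bp. Within a band of pile-up the narrow sites were no further apart than the wide ones. From 15 to 20 fragments 83.6% of narrow sites had summits within 50 bp (80.9 to 86.1), against 74.7% of the 467 wide pairs (70.5 to 78.6). From 25 to 40 fragments the shares were 93.3% (87.7 to 96.9) and 94.2% (93.3 to 95), whose intervals overlap. The pairs wide in NSCs and narrow in ASTs gave 84.1% and 93.7% in the same bands, close to the sites narrow in both. Because the width limit also caps how far apart summits can lie, these values are a description.

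**Figure D3:**
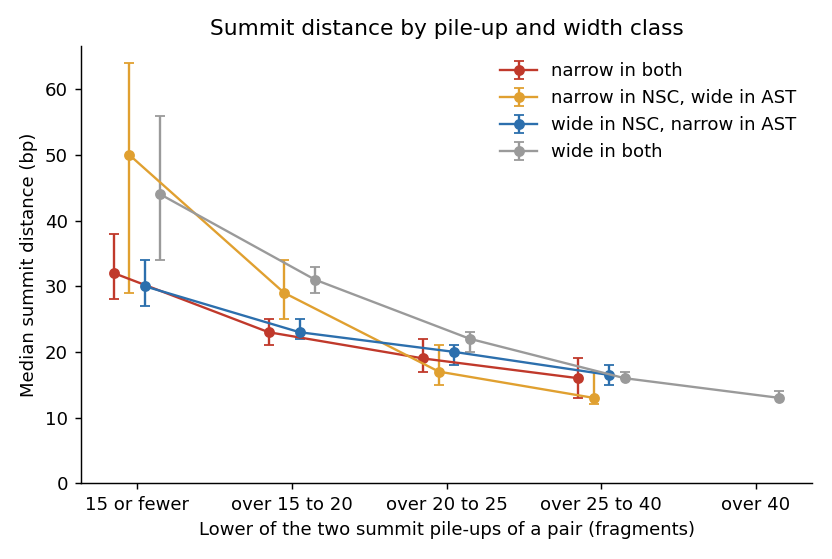
Median distance between the NSC and AST summits (bp) by the lower of the paired summit pile-ups (fragments), for the 4 width classes, with exact 95% intervals of the median as bars. Medians fall from left to right in every class, from 32.0 to 16.0 bp for the sites narrow in both (red), and red points lie at or below the grey points of the pairs wide in both; bands with under 20 pairs of a class are not drawn.

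Fold enrichment at these sites was low in both cell types, and at about the same level. Taking sites narrow in both lists limits it in both, so these values are a description. Median fold enrichment was 6.45 in NSCs (6.45 to 6.61, from 2.15 to 16.4 over the sites) and 6.46 in ASTs (6.46 to 6.84, from 2.71 to 14.4). Over all autosomal peaks the medians were 8.76 and 7.98, and at shared sites wide in both 14.5 and 11.0. Both medians of the narrow sites stood at percentile 30 of their own list. The lists are coarse at this level, since 1 fragment was worth 0.293 of fold enrichment in NSCs and 0.380 in ASTs at the usual background.

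Of the 1654 sites, 1122 were below the median fold enrichment of both lists (67.8%, 65.5 to 70.1), where the background over all pairs was 21.1%. A further 270 were below in NSCs alone and 156 in ASTs alone, and 106 (6.41%) reached the median of both lists. The caller's significance followed the same order. A −log10 q of at least 10 in both lists was reached by 194 narrow sites (11.7%), against a background of 56.5%, and a −log10 q of at least 5 in both by 1025 (62.0%), against 86.6% of all pairs. These counts go with the width limit that chose the sites, and nothing is read from them.

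**Figure D4:**
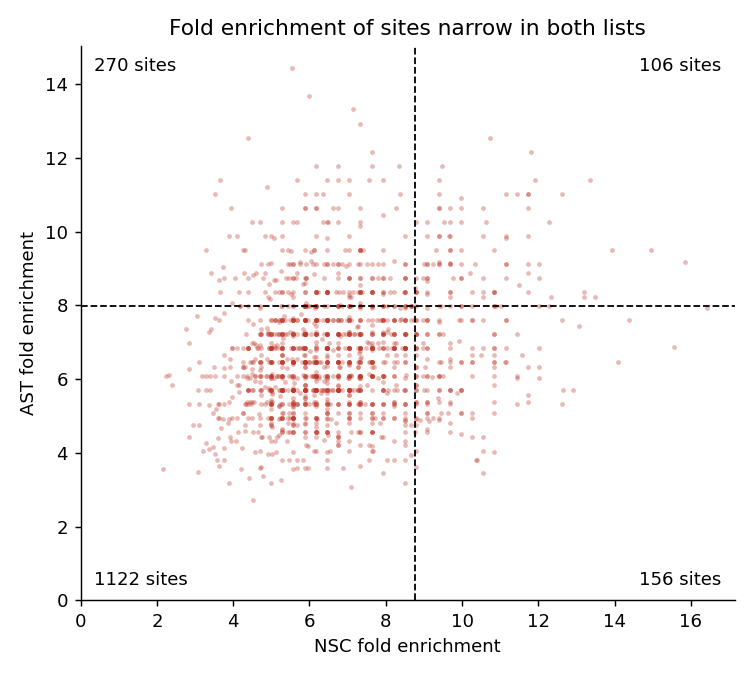
Fold enrichment in ASTs (vertical) against NSCs (horizontal) for the 1654 sites narrow in both lists, 1 point per site, with dashed lines at the medians of all autosomal peaks (8.76 and 7.98). The lower left field holds 1122 sites and the upper right 106, and points fall on a grid because pile-ups are whole fragments.

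The caller's background at a peak could be recovered from the deposited columns, and with it the pile-up in fragments. The narrow sites had a median pile-up of 23.6 scaled fragments in NSCs and 19.0 in ASTs, over a usual background of 3.22 and 2.63. Neither cell type was systematically higher in fold enrichment. It was higher in ASTs at 823 sites (49.8%, 47.3 to 52.2), with a median AST to NSC ratio of 0.995. At pairs wide in both the ratio was 0.765, and 24.8% were higher in ASTs. The ratio of pile-ups was 0.785 at narrow and 0.625 at wide sites, beside a ratio of 0.817 between the usual backgrounds. Taking sites narrow in both lists also limits both enrichments, so nothing is read from a ratio near 1. Within the sites the ranking of the cell types' values was loose, with a Spearman rho of 0.20 for fold enrichment over 1654 sites and 0.52 over all 11718 pairs. It was as low in the other classes with a width limit, 0.16 for pairs narrow in NSCs and wide in ASTs and 0.25 for those wide in NSCs and narrow in ASTs. The limit narrows the range of values, and all points share the same 2 libraries, so nothing is read from these values.

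Wider members were stronger. From the 393 sites with an NSC width under 150 bp to the 657 of 175 bp or more, median NSC fold enrichment went from 5.57 to 7.63 and the summit distance from 25 to 21 bp. By AST width, fold enrichment in ASTs went from 6.08 at 664 sites to 7.29 at 470. Enrichment goes with width, and width chose the sites, so nothing is read from this.

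Narrow peaks of the shared narrow sites were stronger than narrow peaks that met no peak of the other list. Narrow NSC peaks of the shared sites had a median fold enrichment of 6.45 and a width of 168 bp, against 5.57 and 154 bp for the narrow NSC peaks with no AST peak. In ASTs the values were 6.46 and 157 bp against 6.02 and 142 bp. They were not the strongest narrow AST peaks, since those paired with a wide NSC peak had a median fold enrichment of 7.22. Narrow NSC peaks paired with a wide AST peak had 6.45. Meeting a peak of the other list was part of the rule, so these values are a description. When narrow NSC peaks were put into 4 bins of rising fold enrichment, the share that belonged to the sites rose from 15.4% (13.7 to 17.3) through 21.4% and 26.9% to 40.3% (37.9 to 42.7). The same bins of narrow AST peaks gave 19.1%, 22.6%, 25.7% and 21.0%, with no such rise to the top bin. The strongest narrow AST peaks instead met a wide NSC peak more often, since the share with no NSC peak at all fell from 50.7% in the lowest bin to 16.8% in the highest.

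Raised local background, over 1.1 times the usual level, was present in NSCs at 517 sites (31.3%), in ASTs at 499 (30.2%) and in both at 254 (15.4%, 13.7 to 17.2). Over all pairs the shares were 29.3% in NSCs (28.5 to 30.1), 34.5% in ASTs (33.6 to 35.4) and, as background for the last, 14.5%. The narrow sites thus had raised background less often in ASTs, while the intervals overlapped in NSCs and in both. Without the sites raised in either list 892 remained, with median fold enrichments of 6.75 and 6.84. Chromosome 1 differed most, with background raised at 62.2% of its narrow shared sites in NSCs and 73.1% in ASTs. Chromosome 10 came next, with 42.4% and 39.4%. The shares over all pairs of these chromosomes are not given, so these values are not read as a trait of the narrow sites. Median fold enrichments of the narrow shared sites on chromosome 1 were 5.57 and 6.14. The part of the raised background in those values was not tested.

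The 5 strongest sites stood between percentiles 68.4 and 81.7 of their lists. By the lower of the paired percentiles the first was at chr8:119998958-119999135 in NSCs and chr8:119998952-119999142 in ASTs (mm9), with fold enrichments of 13.4 and 11.4 and summits 20 bp apart. The NSC peak at chr11:66838399-66838584 had fold enrichments of 12.6 and 11.0 and stood 3.81 kb from a shared site wide in both. Next came chr2:35786106-35786297 with 12.3 and 10.3. The site at chr6:37539655-37539853 gave 11.9 and 11.4, and that at chr7:106946860-106947053 gave 11.8 and 12.2. Fold enrichment was higher in NSCs at all 5 but the last, whereas the percentile within the list was higher in ASTs at all 5. Their summits were 9 to 32 bp apart.

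At the 3 weakest sites pile-ups were above the median of the sites, over a high background. At chr3:65734323-65734452 fold enrichment was 2.15 in NSCs and 3.55 in ASTs, with pile-ups of 38.7 and 28.0 fragments over 5.59 and 3.00 times the usual background. That site lay 0.768 kb from a shared site wide in both, whose fold enrichments were 15.6 and 20.9. At chr1:93420499-93420654 fold enrichments were 3.07 and 3.48, with pile-ups of 49.1 and 33.0 over 4.97 and 3.61 times the usual background. At chr5:108320619-108320811 they were 3.88 and 3.17, with pile-ups of 34.9 and 25 over 2.80 and 3.00 times. Summits at these sites were 8, 58 and 6 bp apart.

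The most separated summits belonged to weak peaks. The largest distance, 184 bp, was at chr1:156900183-156900360 in NSCs and chr1:156900047-156900214 in ASTs, with fold enrichments of 5.42 and 4.31. It was 177 bp at chr8:88913882-88914031 (3.92 and 4.43), 162 bp at chr1:82240169-82240318 (2.83 and 6.27), 159 bp at chr5:4496300-4496479 (5.44 and 4.94) and 153 bp at chr1:94092607-94092770 (4.20 and 3.55). All 10 peaks were under the median of their list, but both peaks were so at 67.8% of all 1654 sites. Chromosome 1 held 3 of the 5 sites, and 119 of the 1654. With 5 sites nothing is read from these counts.

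Along the chromosomes the narrow shared sites were spread much as other Rad21 sites were. All autosomal peaks together made 21728 sites when peaks that met were counted once, and 21.4 kb was the median distance from a narrow site to the nearest other peak of either list (quartiles 6.82 and 50.8). The nearest shared site wide in both was a median of 89.8 kb away (81.7 to 97.2). For narrow peaks called in NSCs alone it was 93.1 kb, for those called in ASTs alone 91.6 kb, and for wide shared sites themselves 76.6 kb. A wide shared site lay within 10 kb of 179 narrow sites (10.8%, 9.37 to 12.4), against a background of 11.3% over all sites and 13.1% of wide shared sites (12.2 to 13.9). The narrow shared sites were within 10 kb of one about as often as sites in general. These distances depend on which sites count as narrow and wide: with a limit of 150 bp they were 55.8 kb and 17.6%, with 250 bp 183 kb and 5.76%, and without raised background 161 kb and 6.39%. At 35 of the narrow shared sites (2.12%) the nearest wide shared site was over 1 Mb away, against 2.37% of all sites.

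**Figure D5:**
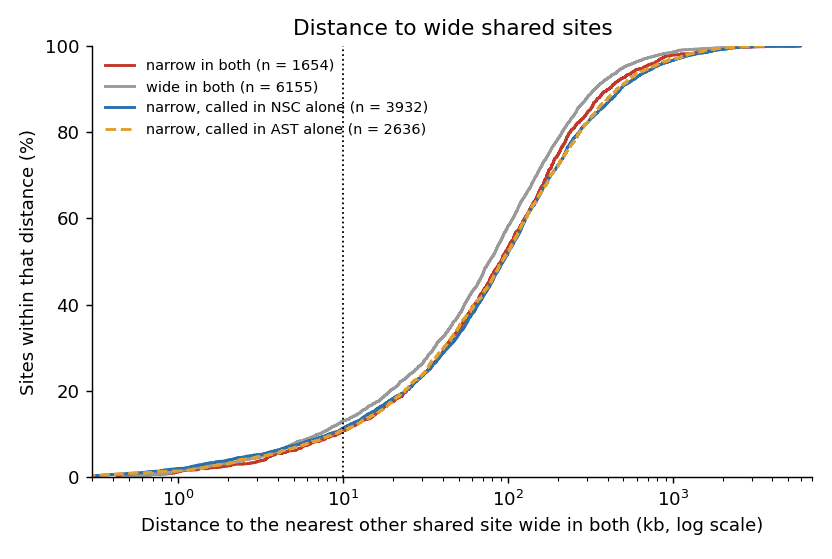
Cumulative percentage of sites (vertical) by distance to the nearest other shared site wide in both lists (horizontal, kb, log scale), with a dotted line at 10 kb. The curves of the sites narrow in both (red) and of narrow peaks called in 1 cell type alone (blue, orange) nearly coincide, with medians of 89.8, 93.1 and 91.6 kb, while wide shared sites (grey) have a median of 76.6 kb.

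The median distance from one narrow shared site to the next nearest was 319 kb (289 to 351), against 364 kb from any autosomal site to a narrow shared site (357 to 373). From sites wide in both it was 355 kb (342 to 367), and from pairs narrow in NSCs and wide in ASTs 346 kb (289.6 to 383). It was 370.1 kb from pairs wide in NSCs and narrow in ASTs, and 368 kb from AST peaks called alone, narrow or wide. The intervals of these pair classes and of AST peaks called alone overlap that of the narrow shared sites. The interval over all autosomal sites (357 to 373) does not. Nor do those of NSC peaks called alone, with 384 kb from narrow ones (366 to 405) and 386 kb from wide ones (358 to 415). Another narrow shared site lay within 10 kb of 60 narrow shared sites (3.63%, 2.78 to 4.64), where the background was 2.92%, inside the interval. The nearest other site was a narrow shared site in 164 cases (9.92%, 8.52 to 11.5), while such sites were 7.61% of all sites. This was not particular to them. The same was seen for wide shared sites (31.4% against 28.3%), for narrow NSC peaks called alone (20.4% against 18.1%) and for narrow AST peaks called alone (15% against 12.1%). For the narrow shared sites the nearest other site was wide and shared in 28.7% of cases, close to the 28.3% such sites made of all.

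The 5 sites nearest to a wide shared site were 0.426 to 0.504 kb from it. The nearest was at chr18:83243711-83243887, with fold enrichments of 5.58 in NSCs and 7.67 in ASTs, beside a wide site of 17.9 and 16.0 at chr18:83244058-83244369. At chr11:90558773-90558931 the values were 9.09 and 8.75, beside 12.3 and 9.89. At chr7:139743080-139743224 they were 6.13 and 5.38, beside 14.7 and 7.22, at chr11:98783197-98783379 they were 9.68 and 8.36, beside 14.4 and 11.0, and at chr18:13083858-13084028 they were 9.97 and 6.46, beside 11.4 and 8.75. In all 5 the wide neighbour was the stronger in both cell types. Enrichment goes with width, and width chose both kinds of site, so nothing is read from this.

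Isolated sites were rare, as they were among all autosomal sites. Another site lay within 100 kb of 89.7% of the narrow shared sites, against 89.8% of all sites. The nearest other peak of either list was over 500 kb away at 10 of the 1654 sites, and the share over all sites at that distance is not given. The nearest other site was over 1 Mb away at 1 of them (0.0605%), against 0.152% of all autosomal sites. The farthest, chr12:96929035-96929206, was 2182 kb from the next peak, with fold enrichments of 7.33 and 6.55 and summits 39 bp apart. It was 763 kb at chr11:25762923-25763058 (4.72 and 6.33), 589 kb at chr17:52699360-52699541 (12.3 and 8.23), 588 kb at chr5:14218805-14218972 (9.39 and 7.22) and 581 kb at chr3:159387607-159387802 (5.53 and 14.4). Summit distances at these 5 ran from 9 to 39 bp. The AST peak on chromosome 3 was the strongest among the AST peaks of all narrow shared sites.

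The closest pair of narrow shared sites, chr16:30066261-30066423 and chr16:30066473-30066655, was 328 bp apart, taken from the midpoint between the NSC and AST summits of each. Their summits differed between cell types by 92 and 135 bp, and their fold enrichments were 4.99 and 4.94, and 4.99 and 6.08. The next pairs were 721 bp apart, at chr6:114648022-114648186 and chr6:114648754-114648947, and 1465 bp apart, at chr14:71045428-71045596 and chr14:71046944-71047112. Their summits differed by 6 and 30 bp and by 2 and 46 bp.

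In windows of 1 Mb, 1050 of the 2211 windows with any site held a narrow shared site, 648 of them just 1. The fullest was 28 to 29 Mb on chromosome 7 with 7 of its 23 sites, and it held 1 site wide in both. Their NSC fold enrichments ran from 5.87 at chr7:28835295-28835434 to 11.2 at chr7:28470797-28470981, and summit distances from 2 to 31 bp. Windows at 123 to 124 Mb on chromosome 5 and 98 to 99 Mb on chromosome 11 held 6 each, with 5 and 9 wide shared sites. More wide sites in a window went with more narrow ones: windows with no wide shared site held a mean of 0.286 narrow shared sites, those with 1 to 2 held 0.610, those with 3 to 5 held 0.95, and those with 6 or more held 1.27. Narrow peaks called in NSCs alone rose over the same windows from 0.814 to 3.06 and those called in ASTs alone from 0.563 to 2.08, so all 3 kinds rose together.

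By chromosome, the share of one-to-one pairs that were narrow in both ran from 11.7% on chromosomes 1 and 8 to 17.1% on chromosome 5, with 59 to 127 sites each. The interval held the autosomal 14.1% on 16 of 19 chromosomes. It lay below on chromosome 1 (9.79 to 13.8), and above on chromosome 4 (16.9%, 14.2 to 19.8) and chromosome 5 (14.2 to 20.2), where counting error alone would put 0.95 chromosomes outside. The sites were densest on chromosomes 19 and 11, with 1.06 and 1.04 per Mb, and sparsest on chromosome 3, with 0.464 per Mb. Chromosomes 19 and 11 also had the most one-to-one pairs of all kinds, 6.96 and 7.21 per Mb. Median fold enrichment by chromosome ran from 5.57 to 7.04 in NSCs and from 6.14 to 6.84 in ASTs, chromosome 1 being the lowest in both.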

How the data were processed

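Bowtie 1.0.0, MACS2 2.0.9 and build mm9 are named in the submitters' processing notes, and the settings are not stated. The authors deposited 1 peak list per cell type, with start, end and summit, a fold enrichment (the ratio of pile-up to local background), and p and q as −log10 values. The lowest deposited −log10 q was 1.02 in NSCs and 1.03 in ASTs, so weaker signal is not listed, and a site missing from a list need not be unbound. The lists held 18405 NSC and 16157 AST peaks, and those off the autosomes were set aside.

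Local background was recovered from fold enrichment and −log10 p as a Poisson tail, scaled by 0.9437 in NSCs and 1.000 in ASTs, which returned the deposited p within 0.05 for 99.9938% of AST and all NSC peaks. Its usual level was the median at peaks enriched more than 8 times. Shares have Clopper-Pearson intervals and medians have binomial order-statistic intervals. The calculations were tested on simulated data. Distances run from the midpoint between the NSC and AST summits of a pair, not from the centre of a peak. For a peak called in 1 list they run from its summit. Positions count from 1.

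Sites named were the 5 of highest lower percentile, 3 of lowest mean percentile, 5 of largest summit distance, 5 farthest from any other peak, 5 nearest to a wide shared site, 3 closest pairs and 3 fullest 1 Mb windows. Members, lists and rule were chosen with earlier results of these data known. Alternatives were other width limits, a q limit, reciprocal overlap, all overlapping pairs, and lists without raised background or chromosome 1. Work was done in Python 3.11.15 (scipy 1.17.1, numpy 2.4.6, pandas 2.3.3; plots with matplotlib 3.10.9).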

Additional observations from a re-analysis of the deposited data

Results flagged for a closer look

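Chromosome X was outside the autosomal comparison, and a larger share of its pairs was narrow. Of 253 one-to-one pairs there, 70 were narrow in both lists (27.7%, 22.2 to 33.6), against 14.1% on autosomes (13.5 to 14.8), and 83 were wide in both (32.8%, 27.1 to 39.0), against 52.5%. This drew attention because the signal lies in data the report did not use. The 70 sites are also above the limit of 3 counts that a count of 0 allows, which says nothing about the share. The 70 sites had median fold enrichments of 6.45 in NSCs and 6.65 in ASTs and a median summit distance of 17.0 bp (11.0 to 31.0), with 58 within 50 bp, near the autosomal values. Background was raised at 25.7% of them in NSCs and 12.9% in ASTs. They stood at 0.421 per Mb, below every autosome (0.464 to 1.06), so the larger share did not come with more narrow sites per Mb. Over all pairs, pile-ups were lower on chromosome X, with medians of 32.1 fragments in NSCs and 21.0 in ASTs against 40.6 and 26.0 on autosomes, and their part in the share was not tested. The difference from the autosomes rests on 1 library per cell type and was not tested.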

How the results depend on the processing

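The 10 values were recomputed under 7 alternatives, and 36 of the 70 results stayed within the interval, or within 1.5 times for the number of sites. No result moved when every overlapping pair was counted or chromosome 1 was left out. Values are given in the order number of sites, share of narrow NSC and of narrow AST peaks, median summit distance, share within 50 bp, median NSC and AST fold enrichment, share below both medians, and median distance to and share within 10 kb of a wide shared site. At 150 bp they were 187, 8.07%, 6.02%, 27.0 bp, 74.3%, 5.57, 5.70, 94.1%, 55.8 kb and 17.6%. At 250 bp, where the summit distance stayed, they were 4291, 42.3%, 36.5%, then 85.5%, 7.63, 7.22, 44.0%, 183 kb and 5.76%. The width limit also sets which sites count as wide. A −log10 q of at least 5 gave 1025 sites, 19.1% of narrow AST peaks, 20 bp, 88.4% within 50 bp, fold enrichments of 7.04 and 7.22, and 74.3% below both medians. Without raised background, which removes wide sites too, there were 892 sites, 19.1% and 17.7% of narrow peaks, an NSC fold enrichment of 6.75, 78.3% below both medians, 161 kb and 6.39%. With the q limit, and without raised background, shares below both medians used the medians of the filtered lists, not 8.76 and 7.98. Reciprocal overlap of 0.5 gave 84.3% within 50 bp. No paired analysis was possible because each cell type had 1 Rad21 library, and leaving out a replicate was not possible. Near the threshold, a step of 1 fragment limits the resolution of fold enrichment.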
